A study of Rattus norvegicus with 38 samples.

Results

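The rat major histocompatibility complex (MHC), called RT1, and the genes that load its molecules with peptide were examined in 38 livers of Sprague-Dawley rats. The set held 53 of the 31038 gene names of the deposited count table. These were all 40 names that begin with RT1- and 13 genes of antigen processing: B2m, Cd74, Ciita, Nlrc5, Tap1, Tap2, Tapbp, Psmb8, Psmb9, Psmb10, Psme1, Psme2 and Ctss. They were picked by name and by their place in the pathway, with earlier results of these data known. A filter on low counts left 41 of the 53 members for testing, 28 of them RT1 genes. In rats injected with lipopolysaccharide (LPS), a cell wall component of gram-negative bacteria, most class II chains, their invariant chain Cd74 and their transactivator Ciita were higher. In the comparison without extract the class I light chain B2m and 5 of 20 tested class I heavy chains were called lower, beside 18.1% of all genes. The heavy chains RT1-CE3 and RT1-M3-1 were called higher, and the share of heavy chains called in either direction was near that of all genes (36.8%). With libraries scaled by total count only the heavy chains RT1-S3 and RT1-N2 stayed called lower.

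Rats of this outbred strain received extracts known only as EF (2.5 g/kg), PF (2.5 g/kg) and RD (200 mg/kg) by the intragastric route, and livers were taken on day 28. The design text calls the samples of a group biological replicates. The groups without LPS were a control (n = 5), EF alone (n = 5), EF with PF (EF_PF, n = 5) and EF with RD (EF_RD, n = 4). LPS was given by the intraperitoneal route with no extract (LPS, n = 5), with EF (LPS_EF, n = 5), with EF and PF (LPS_EF_PF, n = 4) and with EF and RD (LPS_EF_RD, n = 5). PF and RD were never given without EF, and no label used here states the sex or age of the rats, the LPS dose or its timing. Libraries are named by group and by the number in their label. The label names hepatocytes, but no step that separates them is described, and markers of macrophages, neutrophils, lymphocytes, endothelium and stellate cells were measured in each group. In such bulk samples fewer cells of a type and less RNA per cell cannot be told apart.

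Class I molecules consist of a heavy chain and the light chain beta-2 microglobulin, and they show peptides from the cell's own proteins to CD8 T cells. The immunoproteasome cuts those peptides, the TAP transporter carries them into the endoplasmic reticulum, and tapasin helps to load them. Class II molecules pair an alpha and a beta chain, present material taken up from outside to CD4 T cells, and are made mainly by macrophages, dendritic cells and B cells. The invariant chain CD74 guides them, cathepsin S trims it, the DM molecule catalyses the exchange of peptides in the groove, and DO modulates DM. CIITA switches on class II genes and NLRC5 class I genes, both through the factors that sit on the X and Y boxes of the MHC promoters. In the rat, RT1-B and RT1-D are the classical class II molecules, RT1-A is the classical class I region, and the CE, M, N, S and T genes are further class I genes, many with near-identical copies.

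Promoter sequences were taken from RefSeq (build GRCr8), which had an entry for 46 of the 53 members. The 200 bases before the annotated start were searched on both strands for 4 short motifs, chosen with the sequences already seen. The Y box core TGATTGG was in 5.64% of the 33469 rat promoters and in 19 of the 46 members' promoters. The X box core, GCNAC directly followed by NGATG with N for any base, was in 0.397% of all promoters and in 5 members' promoters, those of RT1-Da, RT1-Db1, RT1-Db2, RT1-DMa and RT1-DOb. In these 5 the Y box core followed the X box core after 18 to 21 bases. The interferon response element, GAAA and GAAA with any 2 bases between, was in 2.74% of all promoters and in 9 members' promoters (B2m, Ctss, Psmb10, Psme2, RT1-S2, RT1-S3, Tap1, Tap2 and Tapbp). The kappa B site, GGGGANT directly followed by NCCC, was in 0.269% of all promoters and in 6 members' promoters, those of Cd74, RT1-A1, RT1-A2, RT1-CE10, RT1-CE13 and RT1-CE4. Near-identical class I genes share promoter sequence, so their matches are not independent. A match describes letters only, and no binding was measured.

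The 8 sequences that follow are shown because the results below turn on these genes. RT1-Da (chr20:4515215-4515414, plus strand), RT1-Db1 (chr20:4560163-4560362, minus strand) and RT1-DMa (chr20:4712336-4712535, minus strand) stand for the class II genes that rose. Cd74 (chr18:56527006-56527205, plus strand) encodes the invariant chain. RT1-A2 (chr20:4872671-4872870, plus strand) and B2m (chr3:129549130-129549329, plus strand) encode the most abundant class I heavy chain and the light chain. RT1-M3-1 (chr20:1333367-1333566, minus strand) is the class I gene that rose in every LPS comparison, and Tap1 (chr20:4668544-4668743, minus strand) encodes a transporter subunit. All are 5′ to 3′ in the direction of the gene, and capitals mark matches to the 4 motifs on either strand.

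RT1-Da: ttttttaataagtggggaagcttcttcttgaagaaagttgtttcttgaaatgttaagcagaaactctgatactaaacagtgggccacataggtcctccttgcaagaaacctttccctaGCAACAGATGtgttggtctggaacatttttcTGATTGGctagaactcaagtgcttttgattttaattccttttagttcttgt
RT1-Db1: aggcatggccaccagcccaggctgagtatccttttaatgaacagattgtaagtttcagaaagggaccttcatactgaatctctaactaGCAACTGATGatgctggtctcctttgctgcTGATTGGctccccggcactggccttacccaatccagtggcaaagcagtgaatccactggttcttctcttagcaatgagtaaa
RT1-DMa: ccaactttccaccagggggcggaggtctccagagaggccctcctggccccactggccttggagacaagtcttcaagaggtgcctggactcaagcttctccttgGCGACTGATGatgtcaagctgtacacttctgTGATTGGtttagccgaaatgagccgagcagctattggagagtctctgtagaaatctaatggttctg
Cd74: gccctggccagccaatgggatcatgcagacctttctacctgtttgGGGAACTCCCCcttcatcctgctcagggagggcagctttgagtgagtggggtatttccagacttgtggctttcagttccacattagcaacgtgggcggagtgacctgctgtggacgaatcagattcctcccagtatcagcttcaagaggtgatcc
RT1-A2: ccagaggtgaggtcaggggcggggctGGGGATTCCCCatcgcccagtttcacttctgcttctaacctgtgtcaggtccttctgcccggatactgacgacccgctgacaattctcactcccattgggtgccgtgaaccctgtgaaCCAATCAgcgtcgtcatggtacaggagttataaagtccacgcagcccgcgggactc
B2m: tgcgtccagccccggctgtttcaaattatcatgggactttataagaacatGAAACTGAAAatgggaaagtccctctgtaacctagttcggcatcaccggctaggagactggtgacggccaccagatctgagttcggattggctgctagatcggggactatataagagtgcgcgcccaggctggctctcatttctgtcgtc
RT1-M3-1: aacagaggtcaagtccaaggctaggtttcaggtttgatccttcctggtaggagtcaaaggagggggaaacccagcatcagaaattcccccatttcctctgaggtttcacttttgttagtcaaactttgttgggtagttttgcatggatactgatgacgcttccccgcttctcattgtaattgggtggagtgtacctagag
Tap1: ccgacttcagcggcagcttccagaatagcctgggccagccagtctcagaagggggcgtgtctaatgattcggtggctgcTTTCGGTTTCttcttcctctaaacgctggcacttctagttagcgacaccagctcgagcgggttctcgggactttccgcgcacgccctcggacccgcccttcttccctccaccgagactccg

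Capitals near the middle of the 3 class II promoters are the X box core and, after it, the Y box core. The capitals of Cd74 and the first of RT1-A2 are kappa B matches, and the second of RT1-A2 is a Y box core. Those of B2m and Tap1 are interferon response elements. The matches of Cd74 and Tap1 and the Y box core of RT1-A2 are read on the other strand. No letters of RT1-M3-1 matched, which says only that these exact letters are not in this window.

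The range of member levels was wide. In TPM, the authors' length-scaled unit, the mean over the 38 libraries was 1307 for B2m, 383 for RT1-A2, 295 for Cd74, 239 for Psme1, which encodes a subunit of the proteasome activator PA28, 202 for RT1-S3 and 174 for RT1-Da. Both transactivators stood far lower, with means of 2.34 TPM for Nlrc5 and 1.87 TPM for Ciita, and RT1-DMa (1.40 TPM) and RT1-DMb (1.70 TPM) lay in the same range. The light chain was thus listed above any single heavy chain, while reads that map to several near-identical heavy chains were left out under the counting options in the file header. Together the 53 members took 0.234% to 0.405% of the counted read pairs of a library, whose totals ran from 19716622 to 35835012. The 12 members left out by the filter were RT1-CE6, RT1-Db2, RT1-Ha, RT1-T24-2, RT1-O1, RT1-S2, RT1-T18, RT1-M1-2, RT1-M1-4, RT1-M1-5, RT1-M4 and RT1-M5. They held 435 counts in all libraries together, with at most 8 in any 1 library. RT1-CE6 and RT1-M1-5 had 0 counts in all 38 libraries, and a count of 0 allows up to 3 counts in a library, for counting error only.

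Class II genes were compared between LPS and control livers first. Values are read pair counts scaled to library size after TMM (CPM), fold changes are on the log2 scale with their standard error (SE), and adjusted p-values come from edgeR's quasi-likelihood test with Benjamini-Hochberg adjustment over 14786 genes, with 0.05 as the threshold of a call. Of the 41 tested members, 13 were called higher and 8 lower in LPS. Over all genes tested 36.8% were called in this comparison, 18.6% higher and 18.1% lower. LPS and control libraries did not overlap for 17 members (13 higher, 4 lower), beside 25% of all genes (12.5% higher, 12.4% lower). Among the 8 tested class II chains 6 rose and 0 fell, with a median log2 difference of 1.33, beside -0.002 for the median of all genes.

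Cd74 (chr18:56071420-56080851, plus strand in build rn6, as are all gene positions given here) stood at 77.8, 112, 121, 129 and 136 CPM in the 5 control libraries. In the 5 LPS libraries it stood at 244, 303, 308, 333 and 417 CPM. Every LPS library lay above every control library, and the log2 fold change was 1.48 ± 0.23 (SE, adjusted p = 1.42e-05). RT1-Da (chr20:4127644-4132616, minus strand), the alpha chain of the classical RT1-D molecule, had 34.3, 52.8, 61.1, 64.8 and 66.5 CPM in control and 106, 140.2, 161, 163 and 210.1 CPM in LPS livers. These groups did not overlap either, with a log2 fold change of 1.48 ± 0.27 (SE, adjusted p = 8.94e-05). Its beta chain partner RT1-Db1 (chr20:4087621-4097190, plus strand) had 20.1, 25.7, 27.1, 30.6 and 36.998 CPM in control livers and 42.5, 54.8, 55.8, 85.4 and 103 CPM in LPS livers. The LPS values of RT1-Db1 spread widely but stayed above control, and its log2 fold change was 1.28 ± 0.32 (SE, adjusted p = 0.00244).

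The RT1-B molecule moved in the same direction. Its alpha chain RT1-Ba (chr20:4066133-4070726, minus strand) had 11.9, 16.2, 18.2, 22.6 and 30.5 CPM in control and 46.6, 48.5, 56.2, 57.3 and 63.2 CPM in LPS livers. The groups were apart, and the log2 fold change was 1.45 ± 0.30 (SE, adjusted p = 0.000315). RT1-Bb (chr20:4043726-4049367, plus strand), the beta chain, had 12.95, 17.6, 19.999, 22.4 and 25.4 CPM in control and 28.9, 35.2, 43.3, 48.5 and 62.9 CPM in LPS livers. Here the lowest LPS library was close above the highest control library, with a log2 fold change of 1.15 ± 0.25 (SE, adjusted p = 0.000603). RT1-DMa (chr20:3935512-3938915, plus strand) and RT1-DMb (chr20:3945383-3952838, plus strand) encode the DM molecule that catalyses peptide exchange. RT1-DMa had 0.130, 0.279, 0.419, 0.422 and 0.536 CPM in control and 0.896, 0.971, 1.35, 1.42 and 1.78 CPM in LPS livers, a log2 fold change of 1.83 ± 0.40 (SE, adjusted p = 0.000591) at a low level (3 to 56 counts in a library). RT1-DMb went from 0.745 to 1.19 CPM to 1.65 to 3.22 CPM, a log2 fold change of 1.38 ± 0.32 (SE, adjusted p = 0.00111). DM genes were therefore apart between the groups like the classical chains, as were 25% of all genes tested. For RT1-DOa and RT1-DOb, which form the modulator of DM, the log2 differences were 0.42 (adjusted p = 0.267) and 0.49 (adjusted p = 0.207), and neither was called.

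Ciita (chr10:5212621-5260641, minus strand), the master switch of class II genes, had 2.26, 2.93, 3.11, 4.08 and 4.23 CPM in control livers and 7.09, 9.47, 10.4, 11.1 and 17.9 CPM in LPS livers. No LPS library reached down to the control range, and the log2 fold change was 1.75 ± 0.31 (SE, adjusted p = 7.32e-05). Ctss (chr2:197655780-197679770, plus strand), which encodes cathepsin S, had 23.7, 28.5, 34.6, 35.6 and 48.9 CPM in control and 41.8, 52.3, 52.6, 53.2 and 54.5 CPM in LPS livers. Its groups overlapped through LPS 4, and its log2 difference of 0.57 ± 0.24 (SE, adjusted p = 0.0571) was not called.

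**Figure D1:**
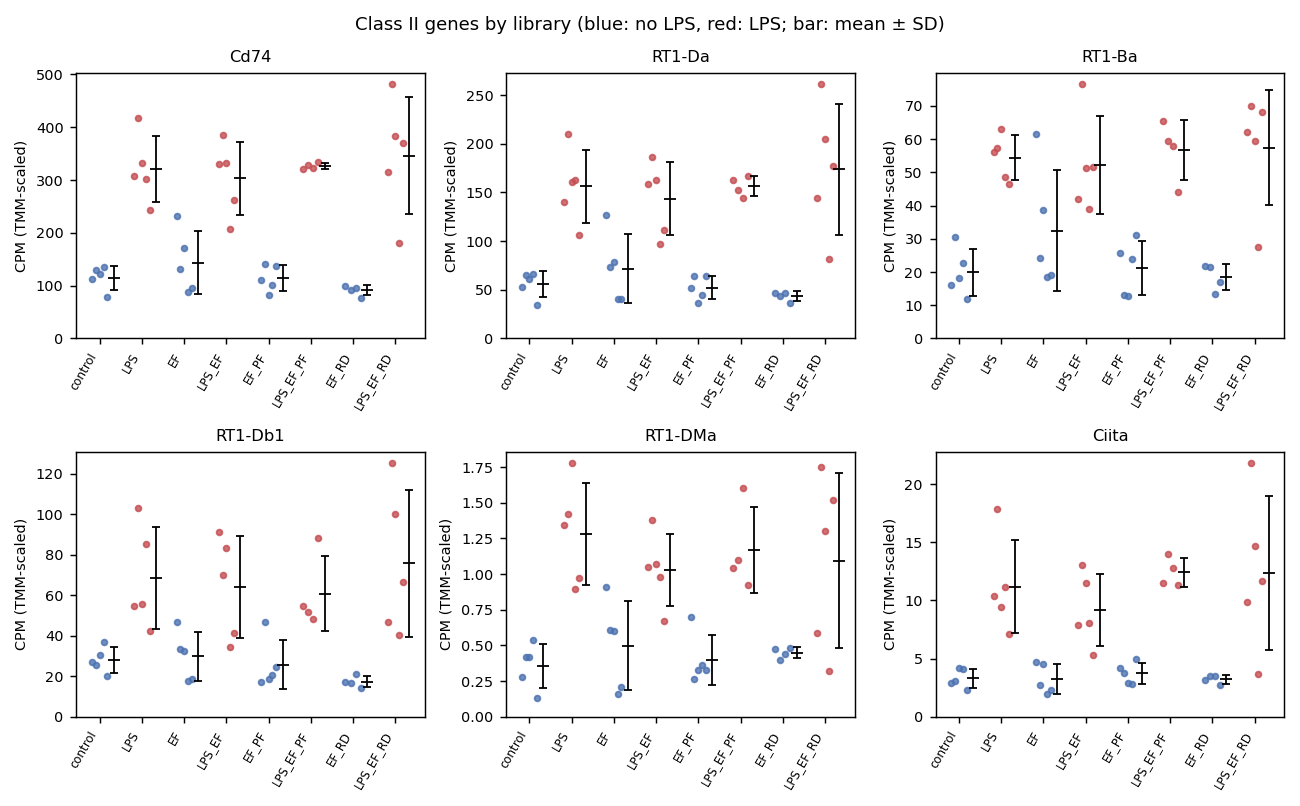
Library-scaled counts (CPM, linear axis from 0) of 6 class II genes in each of the 38 libraries, by group. Points are libraries, blue without LPS and red with LPS, and the bar beside them is the mean ± SD. In Cd74, RT1-Da, RT1-Ba and Ciita the LPS libraries lie above the control libraries, and LPS_EF_RD 6 is the lowest red point of its group in all 6 genes.

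All 4 arms of the study, that is LPS against no LPS with no extract, with EF, with EF_PF and with EF_RD, showed the rise. These arms share no library with each other. With EF, 11 members were called higher and 2 lower, beside 29.1% of all genes called (14.6% higher, 14.5% lower). With EF_PF, 14 were called higher and 1 lower, beside 36.5% of all genes (19.2% higher, 17.3% lower). With EF_RD, 18 were called higher and 1 lower, beside 23.5% of all genes (12.8% higher, 10.7% lower). Called higher in all 4 arms were 10 members: Cd74, Ciita, RT1-Da, RT1-Db1, RT1-Bb, RT1-DMa, RT1-DMb, RT1-M3-1, Psmb10 and Psme2. Shares of all genes were computed arm by arm, and none was computed for calls shared between arms. When each arm was fitted with its own groups alone, 5 of the 10 stayed called in all 4 (Cd74, Ciita, RT1-Bb, RT1-Db1 and RT1-M3-1), and without the low-count filter 8 did, all but RT1-DMa and Psme2. That fit of 2 groups took the arm with EF from 13 called members to 6. The calls of RT1-Da, RT1-DMa, RT1-DMb, RT1-N2, Nlrc5, Psmb10 and Psme2 with EF, whose values follow, were then lost, with adjusted p from 0.0502 to 0.164. With EF_RD those of RT1-DMa, RT1-DOb, Tapbp and Nlrc5 were lost, with adjusted p from 0.0653 to 0.108. RT1-Ba and RT1-CE3 were called higher in 3 arms. No member was called lower in all 4, and Nlrc5 and RT1-N2 were called lower in 3.

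Class II genes were then read group by group in the extract arms. Cd74 had 87.96, 95.3, 132, 172 and 232 CPM with EF and 207, 262, 330.2, 332 and 386 CPM with LPS_EF, where EF 1 overlapped the lowest LPS_EF library. It had 82.3, 102, 111, 137 and 140.2 CPM with EF_PF and 322, 323, 328 and 334 CPM with LPS_EF_PF, the tightest LPS group for this gene. With EF_RD it had 77.1, 92.6, 95.4 and 98.98 CPM, and with LPS_EF_RD 181, 315, 369.9, 384 and 482 CPM, the lowest of which was LPS_EF_RD 6. The log2 fold changes of Cd74 were 1.08 ± 0.23 (SE, adjusted p = 0.000623) with EF, 1.51 ± 0.24 (SE, adjusted p = 1.54e-05) with EF_PF and 1.93 ± 0.25 (SE, adjusted p = 1.2e-05) with EF_RD.

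Ciita was at 1.97 to 4.68 CPM with EF, 2.83 to 4.99 CPM with EF_PF and 2.73 to 3.52 CPM with EF_RD. With LPS the ranges were 5.32 to 13.03, 11.3 to 14.02 and 3.71 to 21.8 CPM. In each extract arm the Ciita groups were apart, and with EF Ciita was the only tested member for which they were, beside 9.98% of all genes. With EF_PF 14 members were apart, beside 37.1% of all genes, and with EF_RD 13 were, beside 14.3%. The log2 fold changes of Ciita were 1.499 ± 0.31 (SE, adjusted p = 0.000596) with EF, 1.73 ± 0.32 (SE, adjusted p = 9.95e-05) with EF_PF and 1.95 ± 0.34 (SE, adjusted p = 0.000197) with EF_RD. RT1-Da lay at 40.3 to 126 CPM with EF and 97.02 to 186 CPM with LPS_EF. It lay at 36.4 to 63.8 CPM with EF_PF, at 144 to 167 CPM with LPS_EF_PF, at 36.2 to 46.7 CPM with EF_RD and at 81.3 to 261 CPM with LPS_EF_RD. Only with EF did these groups overlap. Its log2 fold changes were 0.997 ± 0.27 (SE, adjusted p = 0.00515) with EF, 1.58 ± 0.28 (SE, adjusted p = 5.76e-05) with EF_PF and 2.003 ± 0.30 (SE, adjusted p = 3.77e-05) with EF_RD.

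RT1-Db1 had log2 fold changes of 1.11 ± 0.32 (SE, adjusted p = 0.0101) with EF, 1.25 ± 0.34 (SE, adjusted p = 0.00453) with EF_PF and 2.14 ± 0.36 (SE, adjusted p = 0.000148) with EF_RD, and RT1-Bb of 1.05 ± 0.25 (SE, adjusted p = 0.0021) with EF, 1.24 ± 0.26 (SE, adjusted p = 0.000422) with EF_PF and 1.68 ± 0.28 (SE, adjusted p = 9.98e-05) with EF_RD. RT1-Ba was not called with EF (0.69 ± 0.29 SE, adjusted p = 0.0733), where EF 1 stood at 61.6 CPM against 39.01, 41.995, 51.4, 51.7 and 76.6 CPM in LPS_EF. It rose with EF_PF, 1.42 ± 0.31 (SE, adjusted p = 0.000574), and with EF_RD, 1.64 ± 0.32 (SE, adjusted p = 0.000605). RT1-DMa had log2 fold changes of 1.05 ± 0.39 (SE, adjusted p = 0.0384) with EF, 1.54 ± 0.41 (SE, adjusted p = 0.00358) with EF_PF and 1.28 ± 0.42 (SE, adjusted p = 0.0246) with EF_RD. Its call with EF was lost when EF 4, EF 5, LPS_EF 3, LPS_EF 4, LPS_EF 5 or LPS_EF 6 was left out alone (adjusted p up to 0.115, without EF 4), and with EF_RD it was lost when EF_RD 2, EF_RD 3, EF_RD 4, LPS_EF_RD 2, LPS_EF_RD 4 or LPS_EF_RD 8 was left out alone (adjusted p up to 0.0978, without LPS_EF_RD 2). RT1-DMb had 1.01 ± 0.32 (SE, adjusted p = 0.0159) with EF, 1.34 ± 0.33 (SE, adjusted p = 0.00206) with EF_PF and 1.69 ± 0.35 (SE, adjusted p = 0.00101) with EF_RD. With EF it was lost without LPS_EF 4 (adjusted p = 0.0658). RT1-DOb rose with EF_RD (0.97 ± 0.33 SE, adjusted p = 0.0333), which was lost when EF_RD 4, LPS_EF_RD 2 or LPS_EF_RD 4 was left out alone (adjusted p up to 0.129, without EF_RD 4). Ctss was called with EF_PF (0.62 ± 0.25 SE, adjusted p = 0.0499), and lost when EF_PF 3, EF_PF 5, EF_PF 6, LPS_EF_PF 1, LPS_EF_PF 3, LPS_EF_PF 4 or LPS_EF_PF 6 was left out alone (adjusted p up to 0.129, without EF_PF 6). The class II chains as a set had median log2 differences of 1.005 with EF, 1.29 with EF_PF and 1.66 with EF_RD, and 5, 6 and 7 of the 8 rose.

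**Figure D2:**
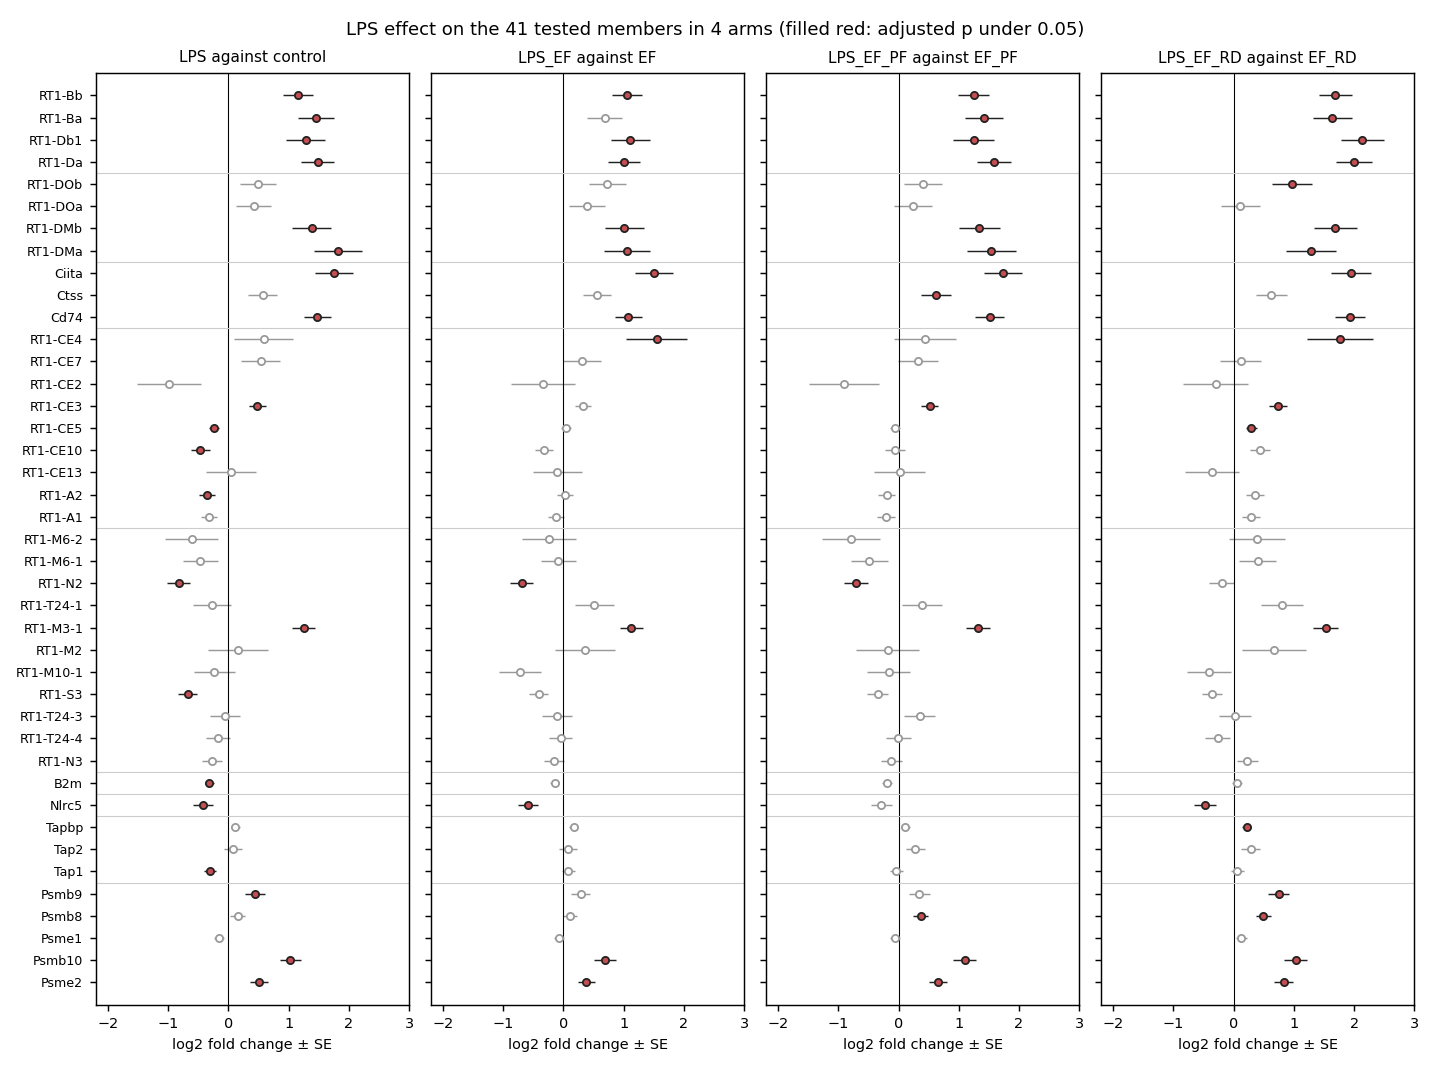
Log2 fold change (point) and standard error (line) of LPS against no LPS for the 41 tested genes in the 4 arms, grouped by role with class II at the top. Filled red points passed an adjusted p of 0.05 (edgeR quasi-likelihood test). The class II chains and Ciita lie to the right in each arm, and most class I heavy chains lie near 0 or to the left in the arm without extract.

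Markers of several cell types moved with LPS too, and these were not only the types that mainly make class II molecules. The counts that follow stand beside 18.6% of all genes called higher and 18.1% called lower in LPS against control. Of 12 Kupffer cell and macrophage markers, 6 rose and 0 fell in LPS against control, and their summed level was 358 to 723 CPM in control and 688 to 1031 CPM in LPS livers. Of the 8 tested dendritic cell markers 3 rose, with sums of 10.998 to 19.7 and 21.9 to 30.8 CPM. All 9 tested neutrophil and monocyte markers rose, from sums of 45.3 to 140.2 CPM to 342 to 516 CPM. Of the 7 tested B cell and plasma cell markers 3 rose, with sums of 109.7 to 155 and 131 to 163 CPM, and of the 9 tested T cell and NK cell markers 5 rose, with sums of 5.82 to 11.4 and 8.63 to 15.02 CPM. Sums of endothelial markers were 103 to 282 CPM in control and 213 to 305 CPM in LPS livers. Those of stellate markers were 348 to 631 CPM in control and 607 to 984 CPM in LPS livers. None of these markers was at 0 throughout a group. The 6 hepatocyte markers went the other way, with 4 lower and 0 higher. The 10 class II chains summed to 81.8 to 156 CPM in control and 229 to 443 CPM in LPS livers. What part the cell types had in the class II result was not tested.

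Class I heavy chains were read next. Of the 20 tested heavy chains 2 rose and 5 fell in LPS against control, or 35% called beside 36.8% of all genes, with a median log2 difference of -0.26. With EF 2 rose and 1 fell (median -0.10), or 15% beside 29.1% of all genes. With EF_PF 2 rose and 1 fell (-0.09), or 15% beside 36.5%, and with EF_RD 4 rose and 0 fell (0.29), or 20% beside 23.5%. In each arm the share of heavy chains called was thus near or below that of all genes. The heavy chains summed to 1033 to 1311 CPM in control and 760.0 to 997 CPM in LPS livers, without overlap. The sums were 989 to 1192 and 809 to 1117 CPM with EF, 847 to 1234 and 716 to 910.3 CPM with EF_PF, and 714 to 922 and 847 to 956 CPM with EF_RD, and within each of these arms the sums with and without LPS overlapped. This depends on the scaling. With libraries scaled by their total count, the median of all genes in LPS against control moved from -0.002 to 0.128. The members' calls went from 13 higher and 8 lower to 16 higher and 2 lower, and RT1-S3 and RT1-N2 were those still called lower. The share of all genes called under that scaling is not given here.

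RT1-S3 (chr20:3176124-3180825, plus strand), a non-classical heavy chain, had 310.1, 378, 401, 428 and 453 CPM in control livers and 195, 239, 243, 252 and 306 CPM in LPS livers. The highest LPS library lay just under the lowest control library, and the log2 fold change was -0.67 ± 0.16 (SE, adjusted p = 0.00143). In the extract arms RT1-S3 was not called, with log2 differences of -0.41 ± 0.16 (SE, adjusted p = 0.0502), -0.35 ± 0.17 (SE, adjusted p = 0.11) and -0.36 ± 0.17 (SE, adjusted p = 0.123) for EF, EF_PF and EF_RD. RT1-N2 (chr20:3146579-3150852, plus strand) had 92.2, 93.9, 102, 123 and 139 CPM in control and 51.1, 51.5, 63.2, 71.4 and 72.5 CPM in LPS livers. Its groups were apart, and its log2 fold change was -0.83 ± 0.19 (SE, adjusted p = 0.00121). With LPS_EF it had 51.5, 53.5, 68.7, 88.3 and 117 CPM, the highest in LPS_EF 7, against 85.5, 102, 125, 130.1 and 171 CPM with EF. With LPS_EF_RD it had 67.1, 67.2, 70.7, 78.5 and 113 CPM, the highest in LPS_EF_RD 6, against 75.5, 90.7, 96.5 and 102 CPM with EF_RD. RT1-N2 fell with EF, -0.70 ± 0.19 (SE, adjusted p = 0.00697), and with EF_PF, -0.71 ± 0.21 (SE, adjusted p = 0.00764), and its difference with EF_RD was -0.20 ± 0.20 (SE, adjusted p = 0.502).

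RT1-A2 (chr20:5374990-5378536, plus strand), a classical heavy chain, had 324, 357, 422, 423 and 427 CPM in control and 265, 282, 291, 339.9 and 347 CPM in LPS livers. The groups overlapped, with a log2 fold change of -0.36 ± 0.14 (SE, adjusted p = 0.0377), and the call was lost when control 3, control 6, control 7, LPS 1, LPS 3 or LPS 5 was left out alone (adjusted p up to 0.088, without LPS 1). RT1-CE10 (chr20:129192-157689, minus strand) had 21.3, 23.6, 25.6, 29.1 and 29.3 CPM in control and 16.7, 16.9, 18.8, 19.2 and 21.9 CPM in LPS livers, overlapping by a little, with -0.46 ± 0.15 (SE, adjusted p = 0.0186). RT1-CE5 (chr20:4892702-4896993, minus strand) went from 134, 143, 145, 149.5 and 163 CPM to 113, 122, 123, 124 and 138 CPM, which also overlapped. Its log2 fold change of -0.25 ± 0.08 (SE, adjusted p = 0.0193) was lost when control 3 or LPS 3 was left out alone (adjusted p up to 0.0591, without LPS 3), and it was 0.29 ± 0.09 (SE, adjusted p = 0.0158) with EF_RD, lost when EF_RD 1, EF_RD 4 or LPS_EF_RD 2 was left out alone (adjusted p up to 0.062, without EF_RD 4). With total count scaling, and with limma on log2(TPM + 1), RT1-A2, RT1-CE5 and RT1-CE10 were not called in LPS against control.

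A few class I genes rose instead. RT1-M3-1 (chr20:1814661-1833033, minus strand), the rat counterpart of the mouse gene whose product shows formylated peptides of bacteria, had 2.45, 2.51, 2.74, 3.01 and 3.81 CPM in control and 6.67, 6.82, 6.97, 7.01 and 7.07 CPM in LPS livers. The LPS values lay within a narrow band above control, and the log2 fold change was 1.25 ± 0.19 (SE, adjusted p = 9.08e-06). In the extract arms it was at 3.44 to 7.82, 5.47 to 7.07 and 4.83 to 8.82 CPM with LPS against 2.03 to 3.96, 1.89 to 3.17 and 1.84 to 2.55 CPM without. Its log2 fold changes were 1.13 ± 0.19 (SE, adjusted p = 6.2e-05) with EF, 1.32 ± 0.19 (SE, adjusted p = 7.57e-06) with EF_PF and 1.52 ± 0.20 (SE, adjusted p = 1.54e-05) with EF_RD. Only LPS_EF 7, at 3.44 CPM, lay within the range of its no-LPS group. RT1-CE3 (chr20:4918047-4943603, minus strand) had 5.52, 5.86, 6.79, 6.91 and 8.01 CPM in control and 8.06, 8.34, 9.63, 9.84 and 10.4 CPM in LPS livers, narrowly apart, with a log2 fold change of 0.48 ± 0.14 (SE, adjusted p = 0.00618). It rose as well with EF_PF, 0.51 ± 0.14 (SE, adjusted p = 0.00557), and with EF_RD, 0.74 ± 0.15 (SE, adjusted p = 0.000688), and with EF it was at 0.33 ± 0.14 (SE, adjusted p = 0.0683). RT1-CE4 (chr20:4918523-4921339, minus strand) lies inside the annotated span of RT1-CE3 on the same strand. Any reads assignable to both genes were not counted for either, and how many these were was not examined. RT1-CE4 itself still had 60 to 840 counts in a library. It rose with EF (1.55 ± 0.51 SE, adjusted p = 0.0203) and with EF_RD (1.77 ± 0.55 SE, adjusted p = 0.0183). These were lost when EF 4, LPS_EF 3 or LPS_EF 5 was left out alone (adjusted p up to 0.0653, without LPS_EF 3), and when EF_RD 1, EF_RD 2, EF_RD 4 or LPS_EF_RD 2 was left out alone (adjusted p up to 0.0689, without EF_RD 2), respectively.

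B2m (chr3:114087290-114093310, plus strand), the light chain, had 1279.6, 1348, 1349, 1389.6 and 1523 CPM in control and 1057, 1071, 1112, 1132 and 1164 CPM in LPS livers. All LPS libraries lay below the control libraries, with a log2 fold change of -0.32 ± 0.08 (SE, adjusted p = 0.00211). With total count scaling and with limma on log2(TPM + 1) this call was lost, and in the extract arms B2m was not called, at -0.15 ± 0.08 (SE, adjusted p = 0.161), -0.19 ± 0.08 (SE, adjusted p = 0.0766) and 0.06 ± 0.08 (SE, adjusted p = 0.661) for EF, EF_PF and EF_RD. Nlrc5 (chr19:10904381-11006202, minus strand), the transactivator of class I genes, had 10.7, 11.2, 11.8, 12.8 and 14.5 CPM in control and 6.97, 8.10, 8.43, 9.55 and 12.6 CPM in LPS livers. The groups overlapped through LPS 4, and the log2 fold change of -0.42 ± 0.17 (SE, adjusted p = 0.0498) was lost when control 3, control 4, control 6, control 7, LPS 1, LPS 2, LPS 3 or LPS 5 was left out alone (adjusted p up to 0.133, without LPS 5). With EF, Nlrc5 had 13.9, 14.1, 16.9, 17.5 and 18.3 CPM without and 6.96, 8.55, 10.6, 12.8 and 14.6 CPM with LPS. The log2 fold changes of Nlrc5 were -0.59 ± 0.17 (SE, adjusted p = 0.00763) with EF, -0.28 ± 0.18 (SE, adjusted p = 0.213) with EF_PF and -0.48 ± 0.18 (SE, adjusted p = 0.0469) with EF_RD, of which that with EF_RD was lost when EF_RD 1, EF_RD 2, EF_RD 4, LPS_EF_RD 2, LPS_EF_RD 4 or LPS_EF_RD 8 was left out alone (adjusted p up to 0.2, without EF_RD 1). The Nlrc5 call in LPS against control was also lost under 7 of 9 other alternatives, total count scaling among them. That with EF_RD was lost under 6 of 9. Nlrc5 and Ciita, which share their promoter factors, differed in the sign of the log2 difference in each arm, a contrast that was not itself tested.

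Peptide supply gave a mixed picture. Psmb10 (chr19:37909543-37912027, minus strand), a catalytic subunit of the immunoproteasome, had 15.8, 16.3, 17.7, 18.1 and 21.001 CPM in control and 31.9, 33.6, 37.8, 39.04 and 39.3 CPM in LPS livers, well apart, with a log2 fold change of 1.03 ± 0.18 (SE, adjusted p = 6.44e-05). With LPS_EF it had 19.4, 35.8, 37.6, 40.4 and 44.03 CPM, the lowest in LPS_EF 7, against 17.2, 18.7, 19.2, 24.3 and 30.4 CPM with EF. With LPS_EF_RD it had 18.5, 31.05, 35.2, 40.1 and 40.9 CPM, the lowest in LPS_EF_RD 6, against 13.6, 14.6, 17.3 and 19.8 CPM with EF_RD. Those libraries lay within their no-LPS ranges while the others lay above them. The log2 fold changes of Psmb10 were 0.69 ± 0.18 (SE, adjusted p = 0.00431) with EF, 1.098 ± 0.19 (SE, adjusted p = 4.35e-05) with EF_PF and 1.03 ± 0.19 (SE, adjusted p = 0.000437) with EF_RD.

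Psmb9 (chr20:3973424-3978845, minus strand) had 16.3, 16.6, 19.6, 21.7 and 23.4 CPM in control and 24.1, 26.01, 27.1, 27.7 and 27.8 CPM in LPS livers, apart, with a log2 fold change of 0.44 ± 0.16 (SE, adjusted p = 0.0285) that was lost when control 5, control 6, LPS 2 or LPS 5 was left out alone (adjusted p up to 0.0768, without control 6). It rose with EF_RD, 0.75 ± 0.17 (SE, adjusted p = 0.00235), and was not called with EF (0.29 ± 0.16 SE, adjusted p = 0.179) or EF_PF (0.35 ± 0.17 SE, adjusted p = 0.106). Psmb8 (chr20:3990809-3993772, plus strand) had 40.3, 44.6, 45.1, 51.1 and 53.1 CPM in control and 46.7, 47.7, 53.5, 55.05 and 57.3 CPM in LPS livers, which overlapped, at 0.15 ± 0.12 (SE, adjusted p = 0.328). It was called with EF_PF, 0.37 ± 0.13 (SE, adjusted p = 0.0206), lost when EF_PF 2, EF_PF 5, LPS_EF_PF 3 or LPS_EF_PF 4 was left out alone (adjusted p up to 0.0881, without LPS_EF_PF 3), and with EF_RD, 0.49 ± 0.13 (SE, adjusted p = 0.00567), and was not called with EF (0.11 ± 0.12 SE, adjusted p = 0.535). Of the 3 catalytic subunits, Psmb10 was therefore called in 4 arms and Psmb8 and Psmb9 in 2 each.

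Psme2 (chr15:34265552-34269851, minus strand), a PA28 subunit, had 56.4, 56.6, 56.98, 57.3 and 68.6 CPM in control and 74.9, 78.6, 85.9, 89.4 and 92.5 CPM in LPS livers. The groups were apart, with a log2 fold change of 0.51 ± 0.15 (SE, adjusted p = 0.00664). In the extract arms it was 0.38 ± 0.15 (SE, adjusted p = 0.0477) with EF, 0.65 ± 0.15 (SE, adjusted p = 0.00131) with EF_PF and 0.83 ± 0.16 (SE, adjusted p = 0.000437) with EF_RD, and the call with EF was lost when EF 1, EF 2, EF 3, EF 4, LPS_EF 3, LPS_EF 4, LPS_EF 5 or LPS_EF 6 was left out alone (adjusted p up to 0.19, without LPS_EF 4). Psme1 (chr15:34256071-34258947, plus strand), which forms a ring with Psme2, had 111, 123, 136, 138 and 153 CPM in control and 114, 114, 117, 123 and 125 CPM in LPS livers and was not called, at -0.16 ± 0.09 (SE, adjusted p = 0.151). In the extract arms Psme1 was not called either, with log2 differences of -0.08, -0.06 and 0.13. Both PA28 partners thus had different log2 differences in each arm, a contrast that was not itself tested.

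Tap1 (chr20:3979302-3989669, plus strand), which starts next to Psmb9 on the opposite strand, had 22.4, 22.7, 25.2, 25.8 and 28.04 CPM in control and 18.5, 19.4, 19.8, 20.9 and 21.9 CPM in LPS livers. The groups were apart by a narrow margin, and the log2 fold change of -0.31 ± 0.11 (SE, adjusted p = 0.0216) was lost when control 7 or LPS 5 was left out alone (adjusted p up to 0.0713, without control 7), and with total count scaling or limma on log2(TPM + 1). In the extract arms Tap1 had log2 differences of 0.08, -0.04 and 0.06, none called. Tap2 (chr20:3995544-4009587, plus strand), the partner of Tap1 in the transporter, had 2.83, 3.07, 3.34, 3.38 and 4.56 CPM in control and 3.19, 3.29, 3.42, 4.08 and 4.09 CPM in LPS livers, with a log2 difference of 0.07 ± 0.15 (SE, adjusted p = 0.725) and no call in any arm. Tapbp (chr20:5468056-5476007, minus strand), which encodes tapasin, had 37.7, 39.3, 39.9, 40.5 and 40.6 CPM in control and 37.5, 41.2, 43.8, 45.2 and 46.8 CPM in LPS livers. These overlapped, at 0.12 ± 0.07 (SE, adjusted p = 0.219). Tapbp was called with EF_RD (0.22 ± 0.08 SE, adjusted p = 0.0392), which was lost when EF_RD 1, EF_RD 2, EF_RD 3, EF_RD 4, LPS_EF_RD 1, LPS_EF_RD 2, LPS_EF_RD 4 or LPS_EF_RD 8 was left out alone (adjusted p up to 0.136, without LPS_EF_RD 4).

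**Figure D3:**
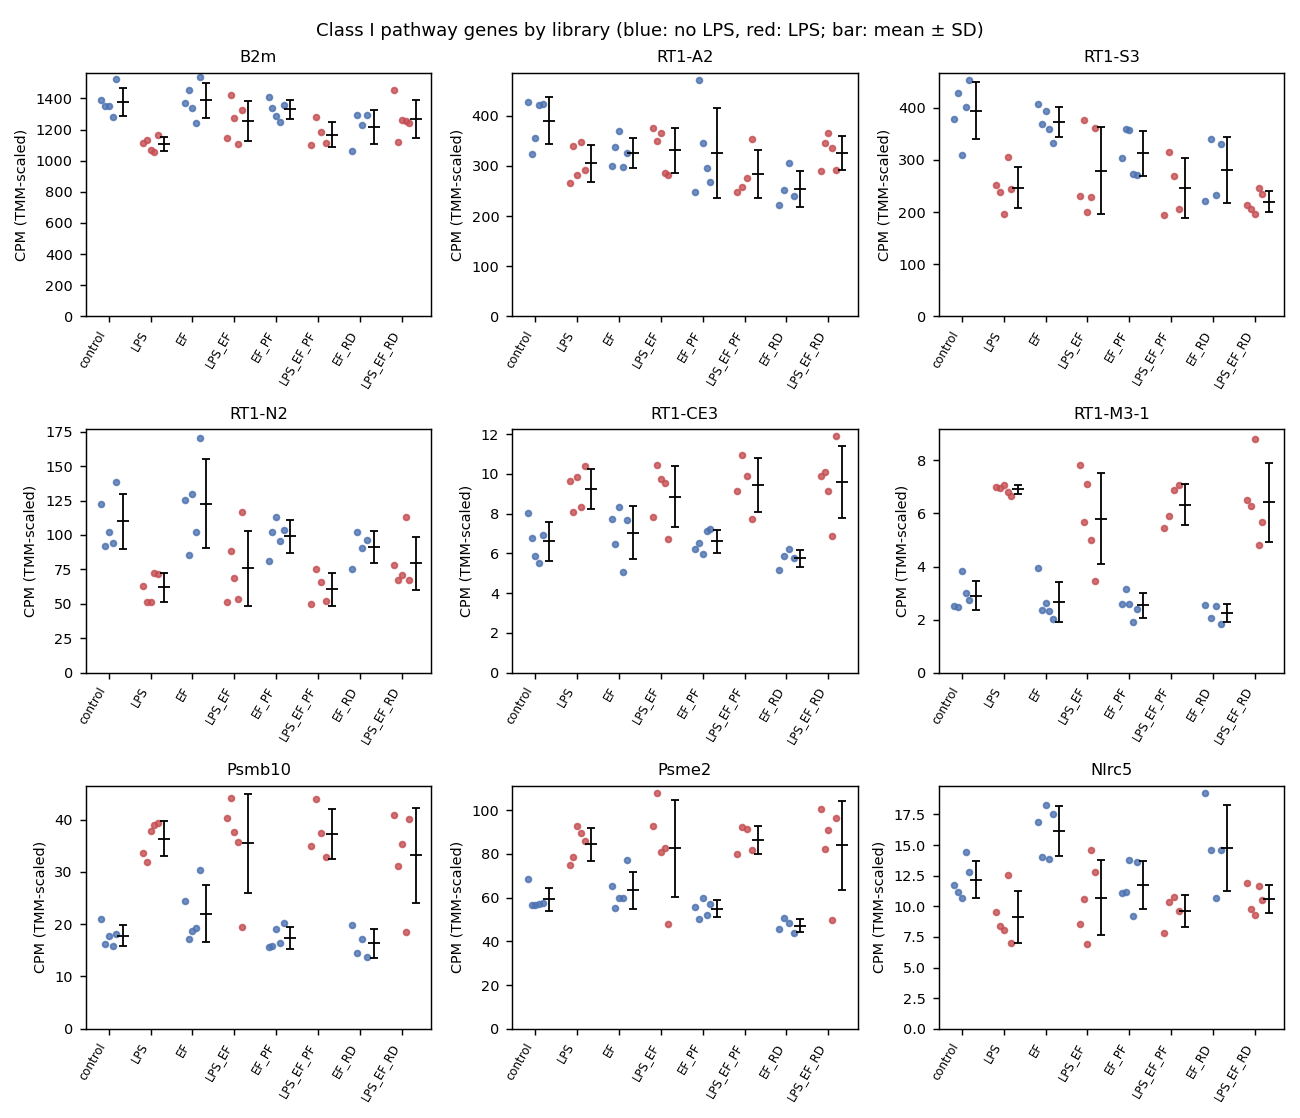
Library-scaled counts (CPM, linear axis from 0) of 9 class I pathway genes in each of the 38 libraries, by group. Points are libraries, blue without LPS and red with LPS, and the bar beside them is the mean ± SD. RT1-M3-1, Psmb10 and Psme2 are higher in most red libraries, B2m, RT1-S3 and RT1-N2 are lower in LPS than in control, and 1 low red point in LPS_EF and 1 in LPS_EF_RD stand out for Psmb10 and Psme2.

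Other genes of the pathway were read from lists in the same fit for LPS against control. The lists were chosen by function, with earlier results of these data known. Their counts stand beside 18.6% of all genes called higher and 18.1% called lower in this comparison. Of 8 genes of class I peptide loading in the endoplasmic reticulum 4 rose and 0 fell: Pdia3 (0.52 ± 0.14) and Calr (0.51 ± 0.14), which are part of the loading complex, Canx (0.25 ± 0.09), a chaperone of new heavy chains, and Sec61a1 (0.39 ± 0.12), the translocation channel (log2 fold change ± SE). Of 9 tested genes of class II processing and turnover 5 rose and 0 fell, among them March1 (2.11 ± 0.39), a ubiquitin ligase for class II molecules, the asparagine endopeptidase Lgmn (1.80 ± 0.22), the cathepsin gene Ctsz (1.08 ± 0.16) and Ifi30 (0.60 ± 0.09), a thiol reductase of the endosome. Of 6 tested genes for the RFX, NFY and CREB factors of MHC promoters 0 were called. Of 6 constitutive proteasome genes 0 rose and 2 fell, Psme4 (-0.43 ± 0.09) and Psme3 (-0.20 ± 0.06).

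Interferon gamma is the classical inducer of CIITA, and of 14 tested genes of its axis 6 rose and 4 fell. Cxcl9 (5.03 ± 0.64), a chemokine gene, had the largest log2 fold change, and Gbp2 (2.12 ± 0.47), which encodes a guanylate-binding protein, and Ifngr1 (0.86 ± 0.15), a receptor chain, rose too. Cxcl10 (-1.50 ± 0.33), another chemokine gene, was lower. Of 9 tested genes of costimulation and T cell recognition 5 rose and 0 fell, with Cd86 (1.38 ± 0.29) and Cd4 (1.27 ± 0.23) among them. Of 6 class I-like genes Procr (1.55 ± 0.51), the protein C receptor, rose and 3 fell, with Hfe (-0.69 ± 0.10), an iron regulator, farthest down. List by list the medians were 0.26 for peptide loading, 0.59 for class II processing, 0.13 for the interferon gamma axis and 0.90 for costimulation.

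Extracts without LPS were compared with control next. Against control, 4 of 41 members were called lower and 0 higher in EF_RD, beside 1.52% of all genes called (0.859% higher, 0.663% lower). A log2 difference below 0 was seen in 34 of the 41, a share that was not counted over all genes. All 4 called members were class I heavy chains of the A and CE regions. RT1-A2 had 222, 239.9, 252 and 305 CPM in EF_RD, all below the control values, and a log2 fold change of -0.62 ± 0.15 (SE, adjusted p = 0.0222). RT1-A1 (chr20:5414463-5418012, plus strand), its neighbour, had 32.6, 35.5, 41.95, 45.3 and 46.7 CPM in control and 23.9, 27.2, 27.4 and 29.6 CPM in EF_RD. These were apart too, at -0.58 ± 0.15 (SE, adjusted p = 0.0375). RT1-CE5 had 105, 107, 117 and 125 CPM in EF_RD, again below each control library, at -0.37 ± 0.09 (SE, adjusted p = 0.0239). For RT1-CE10 the EF_RD libraries had 12.9, 15.03, 16.5 and 16.9 CPM, also apart from control, at -0.75 ± 0.17 (SE, adjusted p = 0.0169). Groups were apart for 8 of the 41 members, all lower, beside 5.82% of all genes (3.34% lower). Tapbp, Psmb8, Psme2 and RT1-T24-1 were among these 8 without a call. RT1-A1, RT1-A2 and the CE genes are alike in sequence, and reads that map to several of them were left out of the counts. Whether the 4 calls are independent of each other was not tested.

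These calls were not stable. Without EF_RD 1, which held skeletal muscle markers at a sum of 3427 CPM, or without control 3, 0 of the 4 were called, and without any of control 7, EF_RD 2 or EF_RD 4 2 were. With libraries scaled by total count RT1-CE10 alone was called. Class II chains had a median log2 difference of -0.31 in EF_RD against control, and 0 of 8 were called. RT1-Da, for example, had 36.2, 43.9, 46.5 and 46.7 CPM in EF_RD, within the control range.

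Against EF, the group that shares the EF extract, EF_RD had 1 member called lower and 0 higher, beside 0.724% of all genes (0.487% higher, 0.237% lower). It was RT1-CE10, with 22.1, 22.9, 23.9, 27.7 and 29.1 CPM in EF and a log2 fold change of -0.71 ± 0.17 (SE, adjusted p = 0.0367), and it was lost when EF 2, EF 3, EF 4, EF 5, EF_RD 1, EF_RD 2 or EF_RD 4 was left out alone (adjusted p up to 0.115, without EF_RD 1). Of the 41 members 35 had a log2 difference below 0, a share that was not counted over all genes. An unadjusted p under 0.05 was found for 17 members (41.5%, beside 14.6% of all genes). The comparison of EF_RD with control uses the same EF_RD libraries, so both sets of values share them. In that comparison 12 of the 41 (29.3%, beside 16.3% of all genes) had an unadjusted p under 0.05.

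EF and EF_PF gave no call among the members. EF against control had 0 of 41 called with edgeR, beside 0.92% of all genes (0.656% higher, 0.264% lower), 5 at an unadjusted p under 0.05 and 0 with DESeq2. EF_PF against control had 0 called, beside 0.622% of all genes (0.446% higher, 0.176% lower), 2 at an unadjusted p under 0.05 and 0 with DESeq2. EF_PF against EF had 0 called, beside 0.162% of all genes (0.0676% higher, 0.0947% lower), 4 at an unadjusted p under 0.05 and 0 with DESeq2. Cd74 had log2 differences of 0.32 ± 0.22 in EF and -0.01 ± 0.22 in EF_PF against control (SE). B2m had 0.01 ± 0.08 and -0.05 ± 0.08. Nlrc5 had 0.41 ± 0.17 and -0.05 ± 0.17. A miss of the threshold does not show that these levels were alike.

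Among the LPS groups no member was called between any extract and LPS alone. LPS_EF against LPS had 0 of 41 called with edgeR, beside 0.108% of all genes (0.0744% higher, 0.0338% lower), 2 at an unadjusted p under 0.05 and 0 with DESeq2. For LPS_EF_PF against LPS edgeR called 0, beside 0.0406% of all genes (0.0271% higher, 0.0135% lower), with 0 at an unadjusted p under 0.05 and 0 with DESeq2. For LPS_EF_RD against LPS it called 0, beside 0.0135% of all genes (0.0135% higher, 0% lower), with 4 at an unadjusted p under 0.05 and 0 with DESeq2. For Cd74 the log2 differences from LPS were -0.08 ± 0.22 with EF, 0.03 ± 0.24 with EF_PF and 0.11 ± 0.22 with EF_RD (SE), and for Ciita -0.29 ± 0.29, 0.15 ± 0.31 and 0.15 ± 0.29. The 3 comparisons share the LPS libraries. LPS_EF_PF against LPS_EF had 0 called, beside 0.00676% of all genes (0.00676% higher, 0% lower), 1 at an unadjusted p under 0.05 and 0 with DESeq2. LPS_EF_RD against LPS_EF also had 0 called, beside 0% of all genes (0% higher, 0% lower), 1 at an unadjusted p under 0.05 and 0 with DESeq2.

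Whether an extract changed the LPS effect was tested by an interaction term, the LPS effect with the extract minus that without. For EF, edgeR called 0 members, beside 0.108% of all genes (0% higher, 0.108% lower), with 2 at an unadjusted p under 0.05 and 0 with DESeq2. For EF_PF it called 0, beside 0.0812% of all genes (0% higher, 0.0812% lower), with 0 at an unadjusted p under 0.05 and 0 with DESeq2. For EF_RD it called 0, beside 0.128% of all genes (0% higher, 0.128% lower), with 10 at an unadjusted p under 0.05 and 1 with DESeq2. The 1 member called by DESeq2 for EF_RD was RT1-CE5, for which edgeR gave 0.54 ± 0.12 (SE, adjusted p = 0.0663). For EF_RD 33 of the 41 interaction terms were above 0, a share that was not counted over all genes. An unadjusted p under 0.05 was found for 24.4% of members, beside 7.5% of all genes. RT1-Db1 had an interaction of 0.85 ± 0.47 (SE, adjusted p = 0.706) and RT1-A2 of 0.71 ± 0.20 (SE, adjusted p = 0.252). For Cd74 it was 0.45 ± 0.33 (SE, adjusted p = 0.787). So the larger LPS fold changes of class II genes with EF_RD, and the opposite signs of RT1-CE5 in these arms, were not shown to differ from the arm without extract. These terms use the EF_RD and control libraries again.

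Some RT1 genes differed from rat to rat within a group more than other genes of like level. For each tested member the standard deviation within groups on the log2(CPM + 1) scale was ranked among the 500 genes nearest in mean level. RT1-CE4 was at the percentile 98.4 (SD 0.75), RT1-Db1 at 97.6 (SD 0.52), RT1-CE2 at 96.8 (SD 0.69), RT1-CE7 at 95.8 (SD 0.46) and RT1-Ba at 95.0 (SD 0.47). B2m was at 4.2 (SD 0.11), among the steadiest. These genes were singled out after their values were seen, and the percentiles are a description. RT1-CE4 had 3.30, 11.9, 12.8, 14.96 and 15.3 CPM in control, 2.72, 4.36, 4.64, 5.12 and 10.2 CPM in EF and 2.67, 3.16, 3.43 and 13.7 CPM in EF_RD livers. In each of these groups 1 library stood well apart from most of the rest. RT1-CE2 had 1.80, 2.65, 2.89, 7.50 and 9.95 CPM in control and 1.27, 2.26, 2.44, 3.11 and 3.38 CPM in LPS livers, and RT1-CE7 4.48, 5.83, 7.77, 9.19 and 10.3 and 7.09, 7.89, 8.999, 9.36 and 21.1 CPM. As background, RT1 genes vary in sequence and number between rat strains, the reference genome comes from an inbred strain, and Sprague-Dawley rats are outbred. The part of such differences in the spread was not tested.

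**Figure D4:**
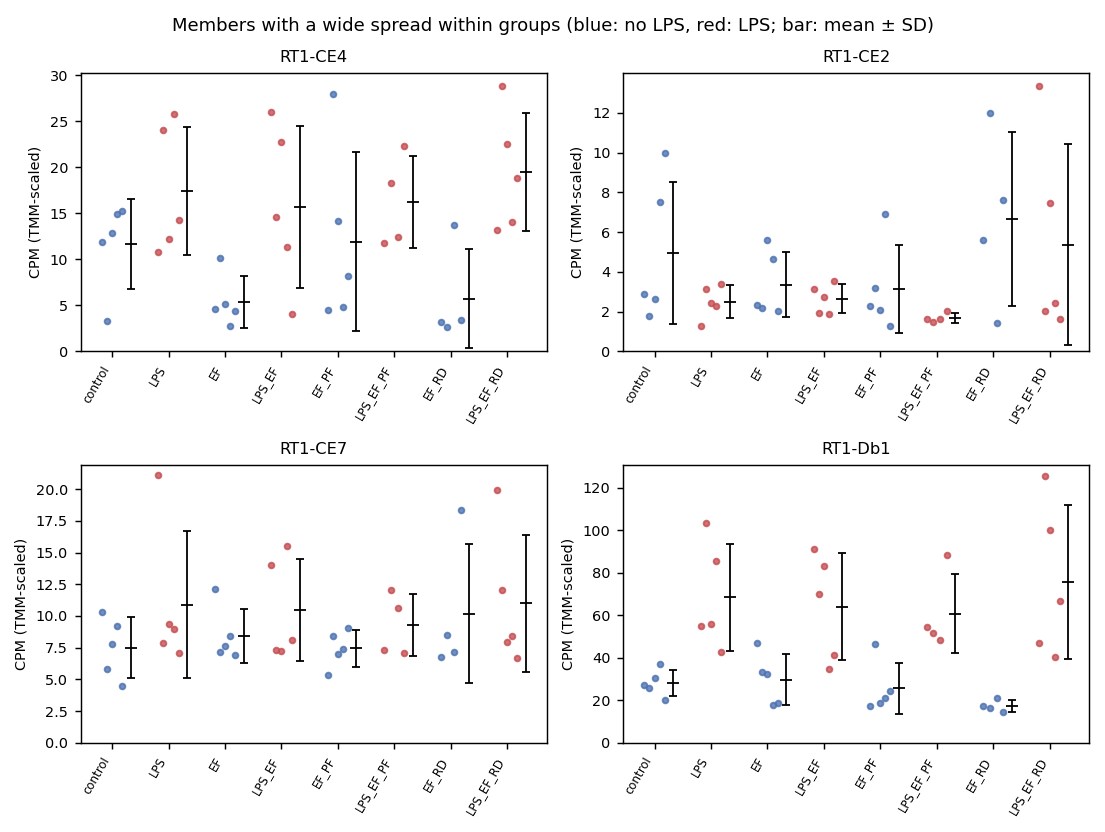
Library-scaled counts (CPM, linear axis from 0) of RT1-CE4, RT1-CE2, RT1-CE7 and RT1-Db1 in each of the 38 libraries, by group. Points are libraries, blue without LPS and red with LPS, and the bar beside them is the mean ± SD. Within groups of the same treatment the libraries differ severalfold for RT1-CE4 and RT1-CE2.

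A few libraries stood apart from their group across several members. LPS_EF_RD 6 had 3.71 CPM of Ciita, 181 CPM of Cd74, 0.318 CPM of RT1-DMa and 49.7 CPM of Psme2, the lowest of its group each time, and its Ciita was close to the EF_RD range of 2.73 to 3.52 CPM. LPS_EF 7 had 5.32 CPM of Ciita and 47.99 CPM of Psme2, also the lowest of its group. These 2 libraries stood apart in other genes as well. Neutrophil and monocyte markers summed to 118 CPM in LPS_EF 7, beside 304 to 398 CPM in the rest of its group and 66.9 to 189 CPM in EF. They summed to 133 CPM in LPS_EF_RD 6, beside 283 to 503 CPM in the rest of its group. Hepatocyte markers summed to 185731 and 185302 CPM in these 2, above the other libraries of their groups (135668 to 155771 and 122798 to 137449 CPM). What part this had in their low member levels was not tested. EF 1 had 232 CPM of Cd74, 126 CPM of RT1-Da and 61.6 CPM of RT1-Ba, above the other EF libraries. LPS 3 held skeletal muscle markers at 318 CPM and EF_RD 1 at 3427 CPM. Exocrine pancreas markers summed to 2486 CPM in control 5 and 1393 CPM in LPS 3, beside 9.64 to 14.7 CPM in the other control and 5.03 to 11.5 CPM in the other LPS libraries. Leaving out LPS_EF_RD 6, LPS_EF 7, EF 1, LPS 3 and EF_RD 1 together gave 18 members called in LPS against control, 19 with EF, 14 with EF_PF and 19 with EF_RD. With control 5 left out too, a step chosen after seeing the data, these counts were 19, 19, 14 and 19. The shares of all genes called in these fits are not given here. Without the 5 libraries the log2 fold change of Cd74 was 1.46, 1.37, 1.51 and 2.13 in these arms.

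**Figure D5:**
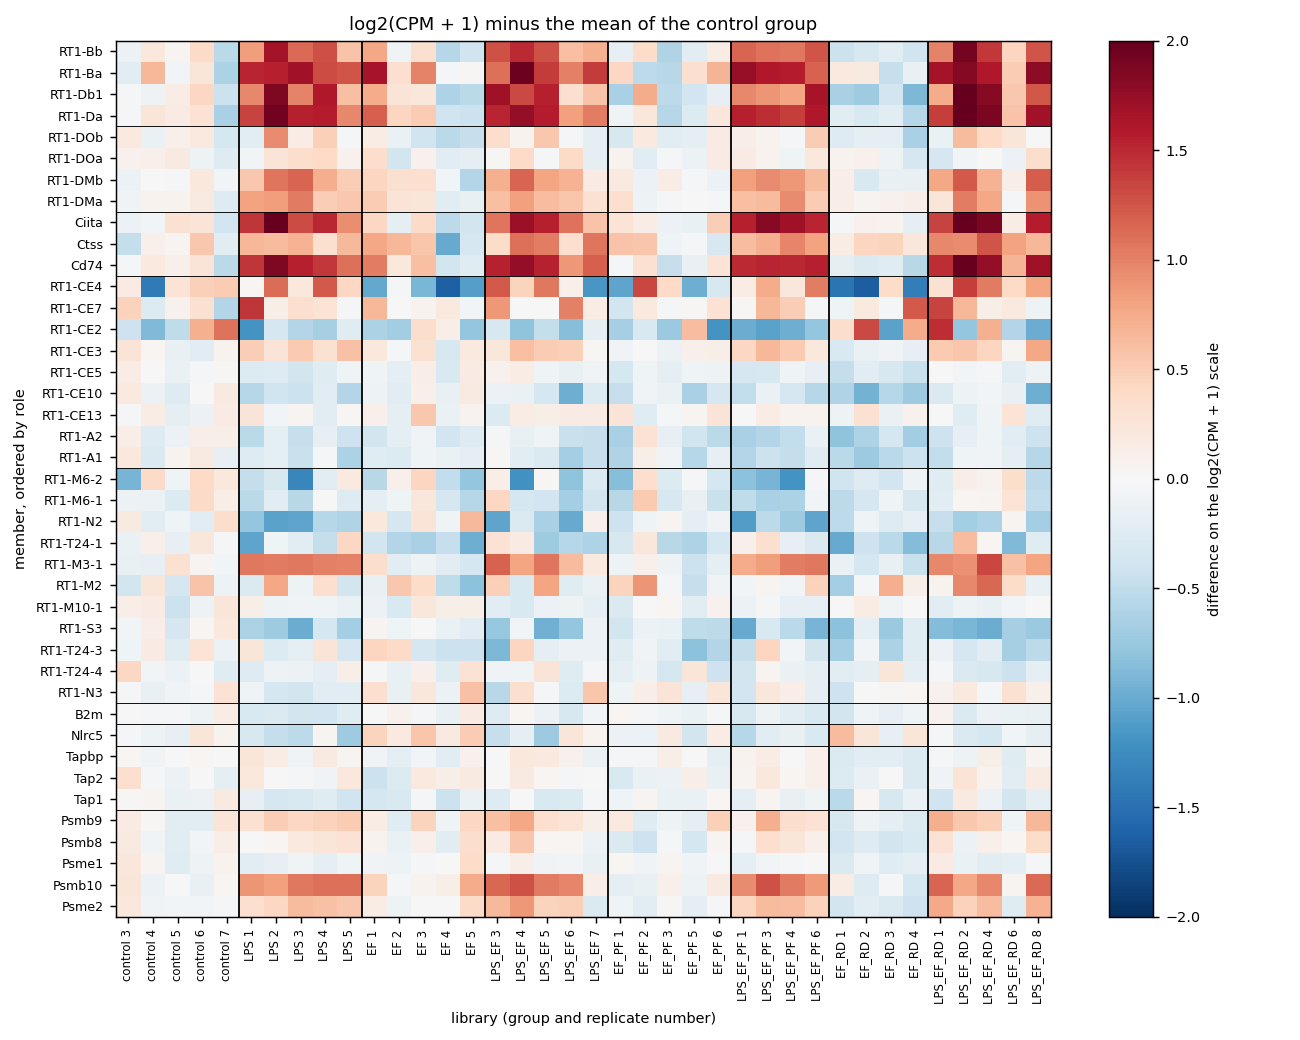
Difference of log2(CPM + 1) from the control mean for the 41 tested genes (down the axis, by role) in the 38 libraries (along the axis, by group). Red is above and blue below the control mean, with the colour scale ending at 2 in either direction. The block of class II genes is red in the LPS groups, with paler columns at LPS_EF_RD 6 and LPS_EF 6, and EF 1 is red for class II without LPS.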

How the data were processed

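Liver RNA of 38 rats in 8 groups was sequenced. Read pairs were counted per gene name by the authors with featureCounts 2.0.6 and an rn6 RefSeq annotation, per the file headers, with no strand option and none for reads that map to several places or overlap several genes, so the deposited counts miss reads shared by near-identical RT1 genes. STAR, RSEM and mRatBN7.2 are further names in the submitters' processing notes. The deposited TPM are the authors' length-scaled values of those counts, checked by recomputing them, and were used for levels and for 1 alternative.

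Genes were kept by filterByExpr (minimum count 10, minimum total count 15), which left 14786 of 31038, and scaled by TMM. All 38 libraries entered a single model with a mean for each group in edgeR 4.0.16 under R 4.3.3 (glmQLFit, glmQLFTest), tested on simulated data beforehand. P-values of the 17 comparisons are two-sided and adjusted within each. Library totals limit members with few counts. DESeq2 1.42.0, limma 3.58.1 on log2(TPM + 1), other scalings, no filter, only the groups compared, a replicate block and left-out libraries were alternatives, and leaving out control 5 with the 5 others was added after seeing the data. Members, lists and the 5 libraries left out together were chosen with earlier results of these data known. Named members are all 13 genes that are not RT1 and RT1 genes called in at least 3 of 14 comparisons between groups, with other called RT1 genes by value, and at most 4 genes a list.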

Additional observations from a re-analysis of the deposited data

Results flagged for a closer look

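In groups of 4 or 5 libraries, a library was singled out when its gap to the nearest of the others, as a share of the whole range of the group, passed Dixon's 95% critical value. This held for 9 of 208 groups of values, and chance alone singles out about 1 in 20.

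Among class II genes, RT1-Db1 stood at 46.7 CPM in EF_PF 2, where the next library had 24.5 CPM, and at 88.5 CPM in LPS_EF_PF 6, where the next had 54.5 CPM. RT1-Ba stood low at 27.5 CPM in LPS_EF_RD 6, where the next had 59.4 CPM. RT1-DMa stood high at 0.702 CPM in EF_PF 1, beside 0.360 CPM. The summed class II chains stood low at 84.2 CPM in EF_RD 4, beside 100.3 CPM. Ctss stood low at 41.8 CPM in LPS 4, beside 52.3 CPM.

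Among class I genes, RT1-N2 stood high at 113 CPM in LPS_EF_RD 6, beside 78.5 CPM. Psme2 stood high at 68.6 CPM in control 3, beside 57.3 CPM, and Psme1 at 170.0 CPM in EF 5, beside 131 CPM. LPS_EF_RD 6 was thus singled out both for a low class II gene and for a high class I gene.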

How the results depend on the processing

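No member's log2 fold change among the calls reversed under any alternative. Counts of called members under the alternatives are given without the share of all genes under the same setting. Without a low-count filter and with DESeq2's size factors in edgeR, each count of called members stayed within 1.5 times its value. For LPS_EF against EF, 13 members were called, but 6 when only these groups were fitted and 20 with a replicate block. For EF_RD against control, 4 were called, but 1 with total count scaling, 0 when only these groups were fitted, 0 with limma on log2(TPM + 1), 1 without the 5 libraries and 1 without those and control 5. For EF_RD against EF, 1 was called, but 0 with total count scaling, 0 when only these groups were fitted, 0 with limma, 2 with DESeq2, 0 without the 5 libraries and 0 without those and control 5. For the interaction of LPS with EF_RD, 0 were called, but 1 with the replicate block (RT1-CE10) and 1 with DESeq2. In these cases the cause was not tested.

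Leaving out 1 library at a time gave 17 to 23 called members for LPS against control, 10 to 17 for LPS_EF against EF, 13 to 15 for LPS_EF_PF against EF_PF and 13 to 20 for LPS_EF_RD against EF_RD. It gave 0 to 4 for EF_RD against control, 0 to 1 for EF_RD against EF, 0 to 1 for the interaction with EF_RD, and 0 in the comparisons with 0 calls not named here. With total count scaling the calls for LPS_EF against EF were 13 higher and 2 lower, for LPS_EF_PF against EF_PF 17 higher and 1 lower, and for LPS_EF_RD against EF_RD 19 higher and 0 lower, and the median gene moved to 0.144 in the arm with EF_PF.

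Replicate numbers are shared between groups, and they are not stated to mark a shared litter, cage or day. The values that follow do not settle whether they pair the samples. Same-numbered libraries of different groups had a median correlation of their deviations of 0.043 over 88 pairs, beside -0.003 over 543 other pairs, and 7 of 38 libraries correlated best with their own number. With the replicate block as a term, 16 members were called for LPS against control, 16 for LPS_EF_PF against EF_PF, 20 for LPS_EF_RD against EF_RD, 3 for EF_RD against control and 1 for EF_RD against EF, and 9 of the 10 members called higher in all 4 arms stayed so, all but Psme2.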

Other observations

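The chaperones that load class I molecules had lower means in EF_RD than in control without a call. Calr had a mean of 1219 CPM in control and 877 CPM in EF_RD livers, and Canx 635 and 528 CPM. The median log2 difference of the 8 genes of that list was -0.37, and edgeR called 0 of them. With LPS on top of EF_RD, 6 of the 8 rose, beside 12.8% of all genes called higher, with a median of 0.52.

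The remaining class I genes of the M, N and T regions were mostly faint. RT1-N3 ran from 12.2 to 28.1 CPM over the 38 libraries, RT1-T24-3 from 2.80 to 8.51 CPM, RT1-T24-1 from 1.35 to 6.52 CPM and RT1-M6-2 from 0.481 to 3.92 CPM. None of these 4 was called in any of the 17 comparisons.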
